A study of Arabidopsis thaliana with 12 samples.

Results

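AT2G19280 and CRR21 (AT5G55740), a pair of nuclear genes for pentatricopeptide repeat proteins, were followed from light-adapted Arabidopsis thaliana plants into 1 h of darkness. They are 2 of the 692 genes that the platform annotation gives to a probe of their own, on an array table of 3439 probes. AT2G19280 was read by probe 4370 and CRR21 by probe 1947, and none of the 870 probes with several genes named either. All 12 samples were total RNA of wild-type Columbia 0, the common laboratory accession: 6 samples of light-adapted plants and 6 of light-adapted plants then kept dark for 1 h. No transgene or mutation separates the groups, and the labels name neither the organ, the plant age nor whether plants were pooled. Both genes were selected on these light and dark intensities, from the results of the whole table, so the values are given as a description, with no test.

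Pentatricopeptide repeat proteins are a large family of plant proteins, mostly imported into chloroplasts or mitochondria. Their repeats bind organelle RNA base by base and so direct its editing, splicing, cleavage or stability. CRR21, named for chlororespiratory reduction, is a plastid RNA editing factor needed to edit a site in the transcript of ndhD, which encodes a subunit of the plastid NADH dehydrogenase-like (NDH) complex. That complex carries electrons from ferredoxin back to plastoquinone in cyclic electron flow. AT2G19280 has no symbol beyond its locus name in the gene table used here.

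The deposited intensities ran from 0 to 100 in each sample and were quantile normalised. Neighbouring sample numbers (1 and 2, 3 and 4, 5 and 6) resemble each other most and were averaged, so a mean ± SD is over 3 averaged replicates, while single values are those of the 6 samples. A background limit was set for each sample, from the probes that read 0 in the neighbouring sample: 95% of their values lie below it. It was 0.0289 to 0.0501 in the dark samples and in light-adapted samples 1 and 2. In light-adapted samples 3 to 6 it was 0.0850, 0.0934, 0.136 and 0.194. On the deposited scale the limit was 0.112, 0.116 and 0.180 in light-adapted samples 4 to 6. The medians of all probes there were lower, 0.103, 0.0710 and 0.0760. In light-adapted sample 3 limit and median were close (0.0957 against 0.0972). A probe below the limit in these samples can thus be of middle intensity for the array. The labels do not say that samples were separate cultures, so spreads may be technical, and the number of arrays limits the precision. A lower intensity can mean fewer cells of a type or less RNA per cell, and these cannot be told apart in such samples.

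AT2G19280 was higher in the dark in every sample. Its normalised intensities in light-adapted samples 1 to 6 were 0.902, 0.429, 0.754, 0.773, 0.420 and 0.434. In the dark samples 1 to 6 they were 1.89, 1.98, 2.12, 2.17, 2.86 and 3.09. The lowest dark sample thus stood above the highest light-adapted one, and the groups did not overlap. Such a gap was also found for 15.2% of all probes, and with the dark samples higher for 8.78%. The light-adapted mean was 0.619 ± 0.173 (SD, n = 3) and the dark mean 2.35 ± 0.551, a difference of 1.98 on the log2 scale (3.93-fold). Of the 3439 probes, 112 (3.26%) had a larger log2 difference toward the dark. The probe was above the background limit in all 12 samples.

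The size of the AT2G19280 difference varied with the sample number. The dark value was 2.09 times the light value for number 1 and 4.61 times for number 2. It was 2.82 and 2.81 times for numbers 3 and 4, and 6.81 and 7.11 times for numbers 5 and 6. Numbers 5 and 6 held both the lowest light-adapted average (0.427) and the highest dark average (2.98), so they gave the widest gap. On averaged replicates the log2 difference was 1.63 for numbers 1 and 2, 1.49 for 3 and 4, and 2.80 for 5 and 6.

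Neighbouring samples gave nearly the same AT2G19280 value, with 1 exception. The values of a pair differed 1.02-fold to 1.08-fold in the dark pairs and in light-adapted samples 3 to 6. Light-adapted samples 1 and 2 differed 2.10-fold, which exceeds every other pair but is less than the 3.93-fold difference between groups. On the deposited scale, before normalisation, light-adapted values ran from 0.395 to 1.08 and dark values from 1.61 to 2.57, and again did not overlap.

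CRR21 was near the middle of the array in intensity, and its 2 groups overlapped. Its deposited values were above the median of all probes in every dark sample, from 0.0668 against 0.0651 in dark sample 5 to 0.119 against 0.0731 in dark sample 2. In the light they were above the median in samples 2 and 5 and below it in samples 1, 3, 4 and 6. Its normalised intensities in light-adapted samples 1 to 6 were 0.0429, 0.0933, 0.0818, 0.0478, 0.0997 and 0.0520. In the dark samples 1 to 6 they were 0.0980, 0.150, 0.101, 0.102, 0.0893 and 0.121. Light-adapted sample 5 was above dark samples 1 and 5, and light-adapted sample 2 above dark sample 5. The other 4 light-adapted samples lay below every dark one. The light-adapted mean was 0.0696 ± 0.00568 (SD, n = 3) and the dark mean 0.110 ± 0.0119, a log2 difference of 0.72 (1.65-fold). Only 2 of the 6 light-adapted samples were above the background limit, so this fold was taken against a level near or below that limit. In light-adapted samples 4 to 6 the limit exceeded the median of all probes, so lying below it there was not particular to CRR21. Of the 3439 probes, 679 (19.7%) had a larger log2 difference toward the dark than CRR21.

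The averaged replicates of CRR21 were steadier than its single samples. In the light the SD between averaged replicates was 0.11 on the log2 scale, while the SD within neighbouring pairs was 0.68. Over all probes the median SDs in the light were 0.53 between averages and 0.40 within pairs, the opposite order. Light-adapted samples 1 and 2 differed 2.18-fold, samples 3 and 4 differed 1.71-fold and samples 5 and 6 differed 1.92-fold. Each of these gaps between neighbours exceeded the 1.65-fold difference between light and dark. In the dark the neighbours differed 1.53-fold, 1.01-fold and 1.35-fold.

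Sample by sample, the dark value of CRR21 was the higher for 5 of the 6 numbers. The dark-to-light ratio was 2.29, 1.60, 1.24 and 2.14 for numbers 1 to 4, then 0.896 for number 5 and 2.32 for number 6. The probe was above the background limit in all 6 dark samples and in light-adapted samples 1 and 2, but in none of light-adapted samples 3 to 6. The limits of light-adapted samples 5 and 6 (0.136 and 0.194) were above 5 and 6 of the dark CRR21 values. The part of these unlike limits in the difference was not tested. On the deposited scale the light-adapted values were 0.0422 to 0.108 and the dark values 0.0668 to 0.125, and the log2 difference without normalisation was 0.53.

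**Figure D1:**
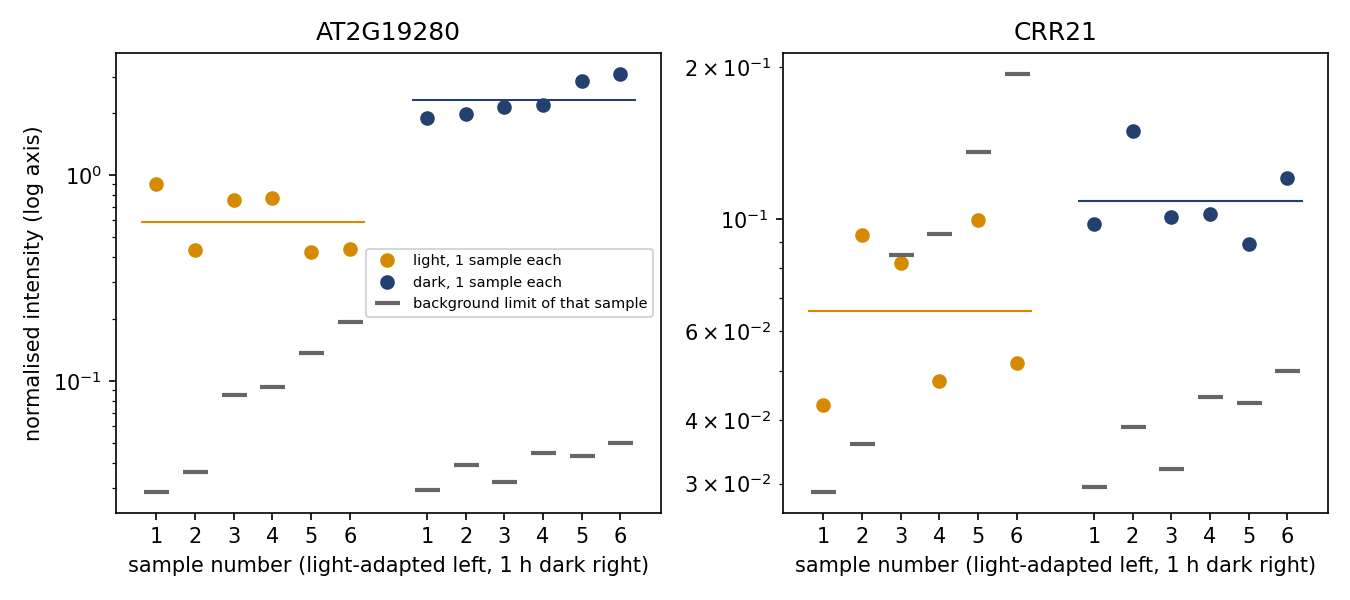
Normalised intensity (log axis, a different range in each panel) of AT2G19280 and CRR21 in the 6 light-adapted (orange) and 6 dark samples (blue). Horizontal lines are group means of log2 values and grey dashes are the background limit of each sample. All dark points of AT2G19280 (1.89 to 3.09) lie above its light-adapted points (0.420 to 0.902), while those of CRR21 overlap and 4 of its light-adapted points lie below the limit.

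The 2 genes showed no positive correlation within a group. Pearson's r between their log2 values was 0.51 over all 12 samples, which include the step from light to dark. It was -0.61 over the 6 light-adapted samples and -0.16 over the 6 dark samples. Light-adapted sample 5, where CRR21 was highest in the light, was the sample with the lowest AT2G19280 value. These correlations describe few samples in which neighbouring numbers are alike.

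**Figure D2:**
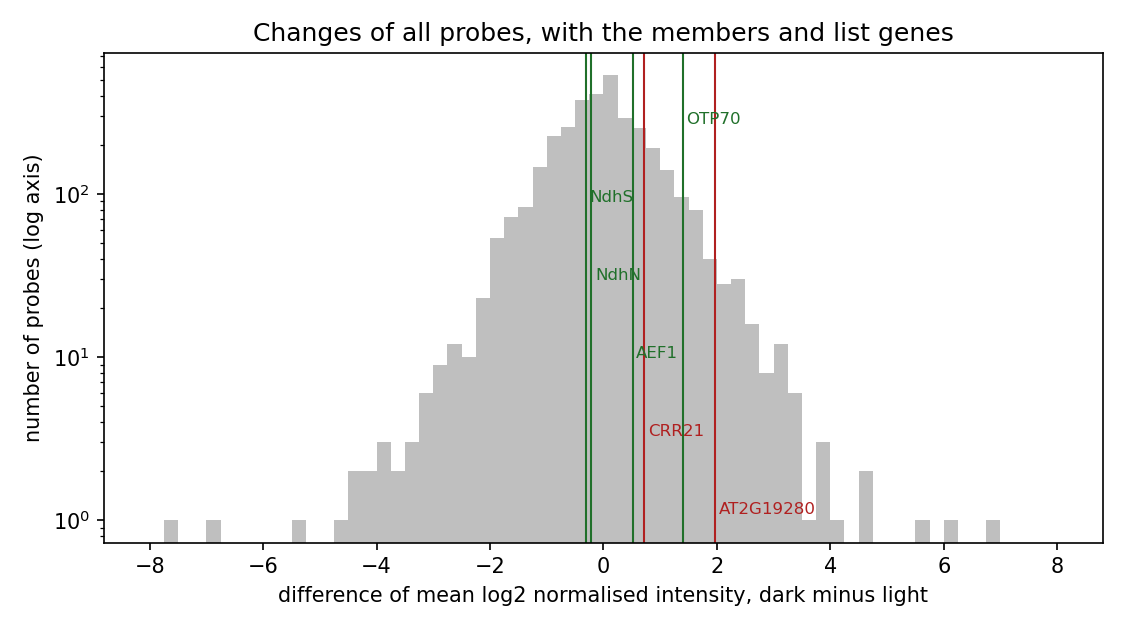
Histogram of the log2 difference, dark minus light, of all 3439 probes (count on a log axis), with AT2G19280 and CRR21 in red and 4 genes of the function lists in green. AT2G19280 (1.98) lies in the right tail and CRR21 (0.72) in the body of the distribution; OTP85 and YS1, at the floor in all samples, are not drawn.

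Other genes of plastid RNA processing and of the NDH complex were taken by function, from 3 lists with 75 genes in all. A search for other pentatricopeptide repeat genes read only the synonyms in the gene table and found none with a probe of its own. It missed the 4 such genes named below, so it does not show that others are absent. Such genes were therefore taken from these lists. Apart from CRR21, 6 listed genes had a probe of their own, and 4 of them encode pentatricopeptide repeat proteins: OTP70, AEF1, OTP85 and YS1. Of the 6, 3 (OTP85, YS1 and NdhN) were above the background limit in none of the 12 samples, so their tests say nothing about their levels. None of the other 3 (OTP70, AEF1 and NdhS) passed limma's Benjamini-Hochberg threshold of 0.05. Of these, 1, OTP70, had an unadjusted p under 0.05, as 24.0% of all probes did. Across the array 7.62% of probes passed, 4.25% with the dark higher and 3.37% with the dark lower. In a fit that took the pair number as a replicate block, 0 probes passed.

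OTP70 (AT4G25270), a factor for splicing of the plastid rpoC1 transcript, stood nearest to the threshold. Its light-adapted values were 0.154, 0.122, 0.135, 0.135, 0.150 and 0.102, and its dark values 0.565, 0.554, 0.256, 0.226, 0.283 and 0.346. All dark samples were above all light-adapted ones, as in 8.78% of all probes. Dark samples 1 and 2 were the highest. The log2 difference was 1.40 (SE 0.34, 2.64-fold) and did not pass in limma (adjusted p = 0.0802, and 0.149 in a fit with replicate block by pair number). Fits in limma that entered all 12 samples passed it, but they also passed many other probes. The adjusted p was 0.00159 for independent samples, where 814 of the 3439 probes passed. It was 0.00420 with neighbours as random blocks (584 probes) and 0.0109 with the sample number as a block (781 probes).

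Of the 3 measured RNA editing factors besides CRR21, only AEF1 was above the background limit in any sample. It was so in 2 of 6 light-adapted and 5 of 6 dark samples. AEF1 (AT3G22150), an editing factor of plastid and mitochondrial transcripts, had a light-adapted mean of 0.0582 ± 0.0419 (SD, n = 3) and a dark mean of 0.0558 ± 0.0155. Its log2 difference of 0.52 did not pass in limma (SE 0.29, adjusted p = 0.369). The linear means differ in the opposite direction from the log2 means. Light-adapted sample 5 read 0.202, against 0.0107 to 0.0517 in the other light-adapted samples. The lowest value, in light-adapted sample 6 (0.0107), was under the floor of 0.0116 used for log2 values. Without that sample the log2 difference was -0.18. OTP85 (AT2G02980), which like CRR21 edits a site in the ndhD transcript, and YS1 (AT3G22690), an editing factor of the plastid rpoB transcript, were below the limit in all 12 samples. Every YS1 value was listed at 0.

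The NDH complex was represented by 2 subunits. NdhS (AT4G23890), the subunit that docks ferredoxin, was bright, with a light-adapted mean of 7.60 ± 0.735 (SD, n = 3) and a dark mean of 6.13 ± 0.980. Its log2 difference was -0.31 (SE 0.16) and did not pass in limma (adjusted p = 0.320). The sign turned with median scaling, where it was 0.02. NdhN (AT5G58260) was below the background limit in all 12 samples, with values up to 0.0278, so its level was not determined. The ndhD transcript itself, the editing target of CRR21, was not measured by a probe with a single gene name.

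Genes with the most similar profile were sought among 510 other single-gene probes with a mean above the lower quartile. For AT2G19280 the 5 with the highest Pearson's r over the 12 log2 values were AT5G56070 (r = 0.94), CCL (0.92), AT4G00590 (0.91), AT4G13550 (0.91) and AT5G38310 (0.91). All 5 were higher in the dark, by log2 differences of 0.94 for CCL to 2.47 for AT4G13550. The ranking over 12 values includes the step of AT2G19280 from light to dark. It thus favours probes with the same step, and their rise is no separate result. Within groups the likeness was uneven. AT5G56070 had r of 0.73 in the light and 0.40 in the dark, whereas AT4G13550 had -0.27 and 0.97, and AT5G38310 had 0.47 and -0.72. AT5G56070, AT4G00590 and AT5G38310 were each above the background limit in 4 of 6 light-adapted samples, and CCL and AT4G13550 in 6. The median r of AT2G19280 with all 510 probes was 0.01 over 12 samples. An r over 0.5 was found for 14.3% of them in the light and 18.2% in the dark.

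For CRR21 the 5 most similar were AT3G43610 (r = 0.88), AT3G52070 (0.85), AT5G52530 (0.82), AT3G25410 (0.81) and AT2G44530 (0.80). All 5 were higher in the dark, by log2 differences of 0.56 for AT3G25410 to 2.49 for AT5G52530. The ranking over 12 values favours such probes here too, so their rise is no separate result. Within groups they resembled CRR21 mainly in the light, with r of 0.66 to 0.96 over 6 samples, against -0.54 to 0.47 in the dark. Sample 5 was the highest light-adapted sample of CRR21, though below its background limit there (0.0997 against 0.136), and of all 5. Of these probes AT3G43610 was above the background limit in 1 of 6 light-adapted samples, AT5G52530 in 3, AT3G52070 in 4, AT2G44530 in 5 and AT3G25410 in 6. The median r of CRR21 with all 510 probes was 0.04 over 12 samples, and 9.82% of them had an r over 0.5 in the light.

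**Figure D3:**
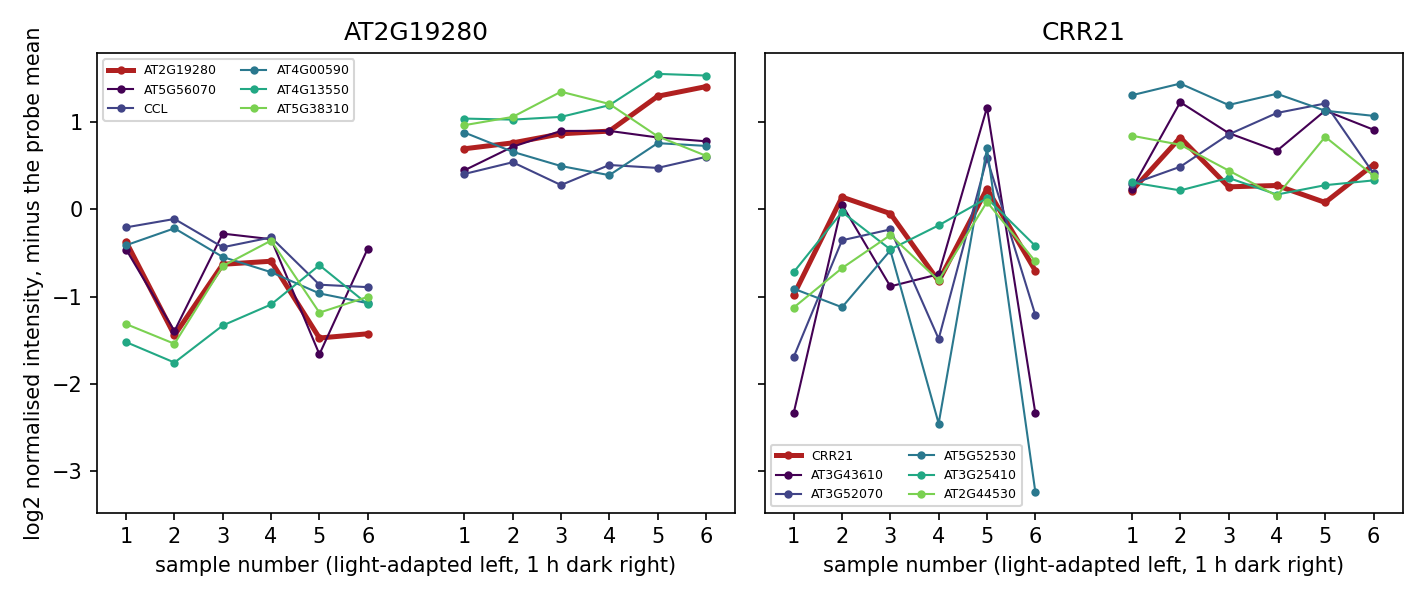
Log2 normalised intensity of each probe minus its own mean over 12 samples, by sample number, for AT2G19280 and CRR21 (thick red) and the 5 probes most like each. The profiles on the left share the step between the groups (r = 0.91 to 0.94), which the ranking over 12 samples favours. Those on the right were also higher in the dark on average. They share, in the light, a peak in sample 5, where CRR21 was below its background limit.

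The probes with IDs next to those of the 2 genes gave these values. Probe 4369, which carries several genes, read 0.0954 to 0.246 in the light and 0 to 0.00244 in the dark, where no sample was above the limit. Its light-adapted level was at least 4.21-fold higher, taken against the limit in the dark (adjusted p = 0.00900 in limma, and 0.0695 in the fit with replicate block by pair number, where it did not pass). Probe 4371 read 0 in all dark samples and up to 0.0638 in the light. Beside CRR21, probe 1946 read 0.146 to 0.228 in the light and 0.0599 to 0.227 in the dark (log2 difference -0.57, adjusted p = 0.572), and probe 1948 was above the limit in 1 light-adapted sample only.

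Of the 29 alternative settings, 21 gave another value for AT2G19280 and 22 for CRR21. The rest left the estimate as it was, since they change the spread estimate, the probes tested or a floor below the values. Both differences stayed above 0 under all settings that moved them. Both genes were selected on this contrast, so the kept sign is a description and no support for a rise. The groups of AT2G19280 did not overlap, so leaving out samples could hardly turn its sign. The difference of AT2G19280 ranged from 1.76 to 2.18 on the log2 scale, and that of CRR21 from 0.53 to 0.91. For CRR21 the lowest value came without normalisation, 0.54 came without light-adapted sample 1, and the highest came without light-adapted sample 2.

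**Figure D4:**
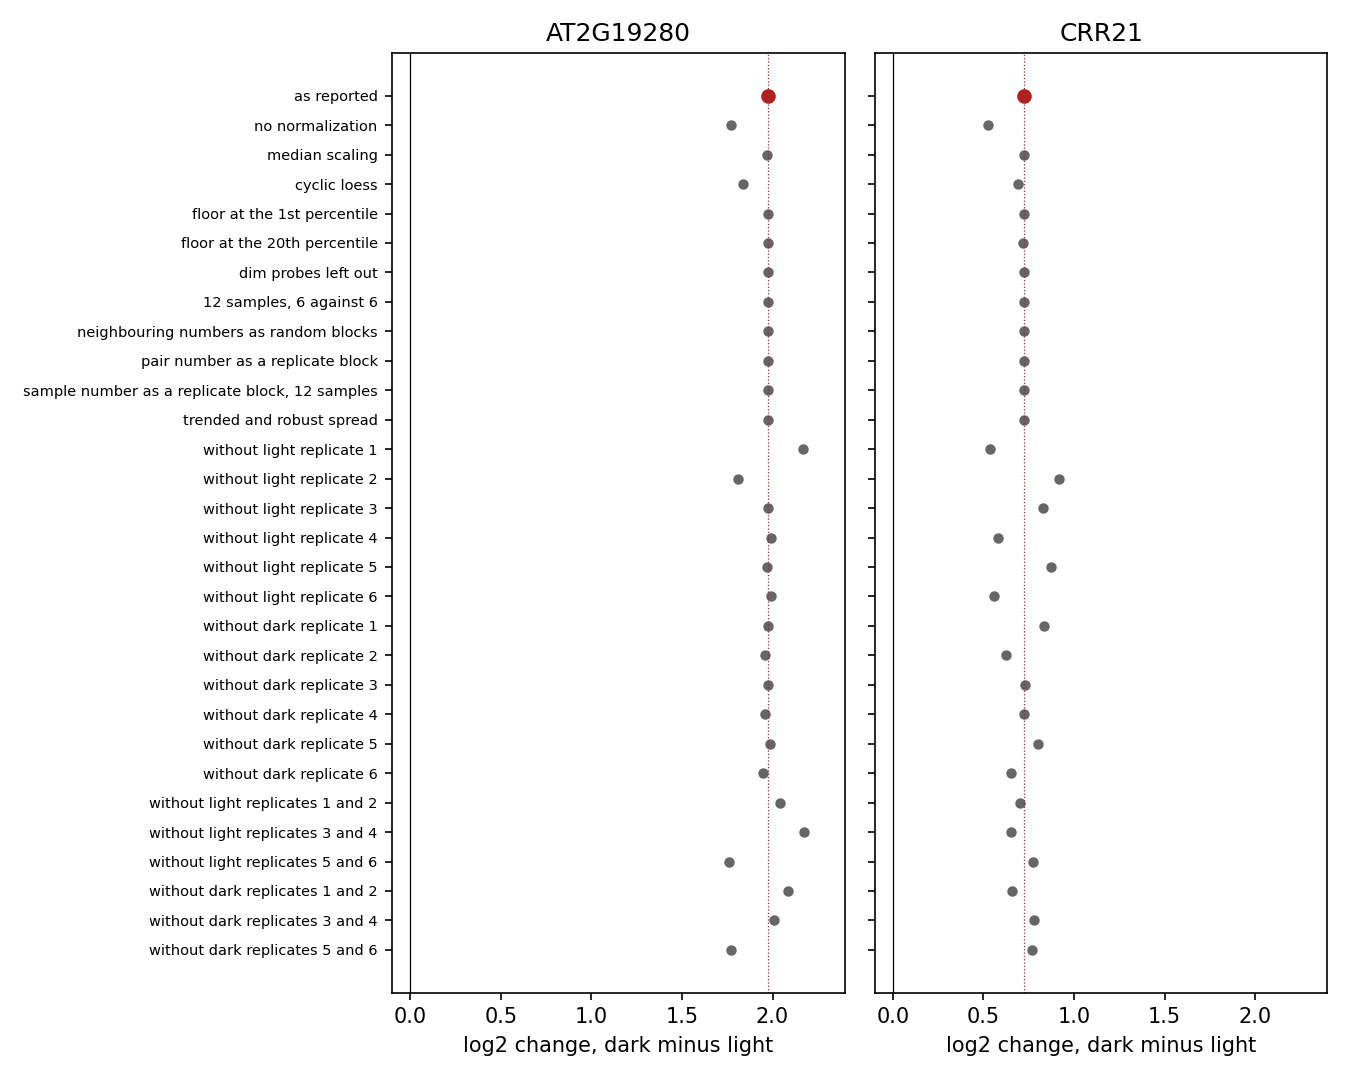
Log2 difference, dark minus light, of AT2G19280 and CRR21 as reported (red) and under 29 alternatives (grey; 1 point per setting on the vertical axis). All points lie right of 0, and for CRR21 leaving out single light-adapted samples spreads the values from 0.54 to 0.91.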

How the data were processed

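The authors deposited intensity values for 3439 probes in 12 samples, on a linear scale from 0 to 100. The labels name no scanner, background correction or scaling. After quantile normalisation, values under 0.0116, the 5th percentile of the positive deposited values, were set to it, and log2 was taken. Neighbouring sample numbers were averaged, a choice made after values had been seen. The test was limma 3.58.1 under R 4.3.3, fitted over all probes as dark minus light (lmFit, eBayes), with Benjamini-Hochberg adjustment over all probes. The fit was also run on simulated data with independent noise in each sample. Those data lacked the likeness of neighbouring and same-numbered samples, so they do not show how the fit behaves with it. Figures used matplotlib 3.10.9.

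Same-numbered samples deviated together from their group means (r of 0.132 to 0.219 for 6 numbers, 0.121 to 0.208 for 3 averaged pairs), so the numbers were taken to pair the samples. The reported fit leaves this pairing out. The 2 genes and the lists were chosen with earlier results of these data known. Named besides the 2 genes were all measured list genes, the 5 most similar probes and the neighbours by ID. Gene names came from the platform annotation, updated through a RefSeq table of TAIR10.1 (690 of 692 matched a locus). Coordinates are left out, since the probes' genome build is unknown.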

Additional observations from a re-analysis of the deposited data

Results flagged for a closer look

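NdhN in light-adapted sample 4 stood apart from the other 5 light-adapted samples. The gap was the whole range of the group (Dixon ratio 1, past the 95% critical value), because the other 5 values were at the floor. Its intensity there was 0.0278, below the background limit of that sample. Of 11 groups with a spread that were examined, chance flags about 1 in 20.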

How the results depend on the processing

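AT2G19280 took another value under 21 of 29 alternatives. In each it moved by less than its own spread between averaged replicates (pooled SD 0.378 on the log2 scale). CRR21 was held to a smaller spread of its own (pooled SD 0.126). It moved by more than this without normalisation (0.53), where the median of all probes was -0.08. It also did so when light-adapted sample 1, 2, 4, 5 or 6 was left out (0.54 to 0.91). Of the 6 list genes, 3 of them never above background, 0 passed in limma, also in the fit with replicate block by pair number, while 1 (OTP70) passed in each of the 3 fits over all 12 samples: independent, random blocks and the sample number as a replicate block. The count of all probes was 262 (827 at an unadjusted p under 0.05). It became 0 (797 unadjusted) with replicate block by pair number, 814 with independent samples, 584 with random blocks, 781 with the sample number as a block and 155 without normalisation. Leaving out dark samples 1 and 2 gave 13, 3 and 4 gave 94, and 5 and 6 gave 64. NdhS reversed with median scaling (0.0198). AEF1 reversed with the floor at the 20th percentile (-0.0319), and leaving out samples gave it -0.18, without light-adapted sample 6, to 1.20, without sample 5. The cause of these changes was not tested. The planned count of other pentatricopeptide repeat genes, sought by synonym in the gene table, found no probe and was not run. Intensities near background limit what can be said of CRR21, AEF1, OTP85, YS1 and NdhN.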
